A study of Homo sapiens with 8 samples.

Results

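The Wnt/beta-catenin target genes described here are AXIN2, LGR5, NKD1, GLUL, TBX3, DKK1, NOTUM, ZNRF3, RNF43 and SP5, which are 10 of the 38032 genes listed in the files. They were taken by symbol from a list of known targets. The rule used no difference between the groups, but the members and the other lists below were chosen with earlier results of these data known. All 10 were found and reached at least 10 counts in at least 2 libraries, so that all 10 were among the 13943 genes tested. RNA was measured in 8 samples of HepG2, a cell line from a human hepatocellular carcinoma that is labelled WT. The 4 2D-primed samples were grown for 8 days on conventional flat culture-ware, and the 4 3D-primed samples for 8 days on Alvetex Strata, a porous, inert polystyrene membrane. Both groups shared the growth medium, with foetal bovine serum, and were released with trypsin in the same way before extraction. Per the methods, 3D-primed cells were seeded at a higher density than 2D-primed cells, so that the growth surface and the seeding density cannot be told apart. All came from one pool of HepG2 cells, and as nothing says whether the replicates were separate cultures, p-values measure only the spread between these samples, which may be technical. The libraries held 21599630 to 25019499 counts in 2D-primed and 22153063 to 27844077 counts in 3D-primed cells, and single members had between 860 and 24023 counts in a library.

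In canonical Wnt signalling, a Wnt protein bound to a Frizzled receptor and an LRP co-receptor halts the destruction complex, a scaffold that otherwise marks beta-catenin for degradation. Beta-catenin then enters the nucleus and activates genes bound by TCF/LEF factors, many of which encode inhibitors of the same pathway and so serve as negative feedback. In the liver the pathway is active around the central vein, where hepatocytes express glutamine synthetase, and it separates these cells from those around the portal vein. HepG2 cells carry a stabilised beta-catenin that lacks the part through which it is normally marked for degradation, so that their target genes are on without added Wnt.

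TCF/LEF factors recognise short sequences, and a form of them is CTTTGA, or TCAAAG on the other strand. Other forms were not searched. The RefSeq promoter table, on GRCh38.p14, held 6 windows for 4 members, namely SP5, DKK1, GLUL and RNF43. These letters were searched on both strands in the 250 bases before each start, where they occurred in 11.2% of all 35116 windows in the table. Of the 4 members, SP5 and DKK1 held them, and both held them on each strand, as did 0.498% of all windows. The members are counted here by gene and the percentages by window. A match of letters is a description of the sequence and not evidence of binding. The promoter of SP5 is shown because it held 3 matches, the most among the windows of the members, at positions -147, -109 and -83 relative to the start (first base of each). It covers chr2:170715087-170715336 on the plus strand, and the capitals mark the matches.
SP5: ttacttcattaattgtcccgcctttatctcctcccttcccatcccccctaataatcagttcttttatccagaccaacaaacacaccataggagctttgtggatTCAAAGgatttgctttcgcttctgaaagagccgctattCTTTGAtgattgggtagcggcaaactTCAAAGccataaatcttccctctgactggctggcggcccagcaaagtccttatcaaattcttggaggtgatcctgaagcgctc
In DKK1 the matches began at positions -149 and -95. All 250 bases of this window overlap an exon annotated in GENCODE, whereas the window of SP5 overlaps none. Each match in DKK1 is shown in capitals with the bases on either side of it. The stretches shown cover chr10:52314123-52314146 and chr10:52314177-52314200 on the plus strand.
DKK1 first: tgaagagtgTCAAAGgcccccctt
DKK1 second: ctcccagcgCTTTGAaatcccatc

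All 10 target genes were lower in 3D-primed than in 2D-primed cells, by 1.14-fold for GLUL to 3.02-fold for NKD1. Each was differentially expressed in edgeR's quasi-likelihood test with Benjamini-Hochberg adjustment over all genes, whose largest adjusted p among the members was 0.0012. Of all genes tested, 63.9% were called, 31.6% lower in 3D-primed cells and 32.4% higher. DESeq2 also called all 10 members lower, and 60.3% of all genes, 30.8% as lower. In each of the 10 genes the lowest 2D-primed library lay above the highest 3D-primed library, an arrangement found in 29.5% of all genes tested, against 30.2% with the groups the other way round. The median log2 fold change (log2FC), given here as 3D-primed over 2D-primed, was -0.73 for the members and 0.013 for all genes tested. A group of 4 members, NKD1, AXIN2, NOTUM and RNF43, fell at least 2-fold, as did 7.01% of all genes tested. Levels are given as CPM, a gene's counts relative to the total of its library after TMM scaling, and as mean ± SD of 4 libraries. In bulk RNA, fewer cells with a transcript and less of it per cell cannot be told apart.

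**Figure D1:**
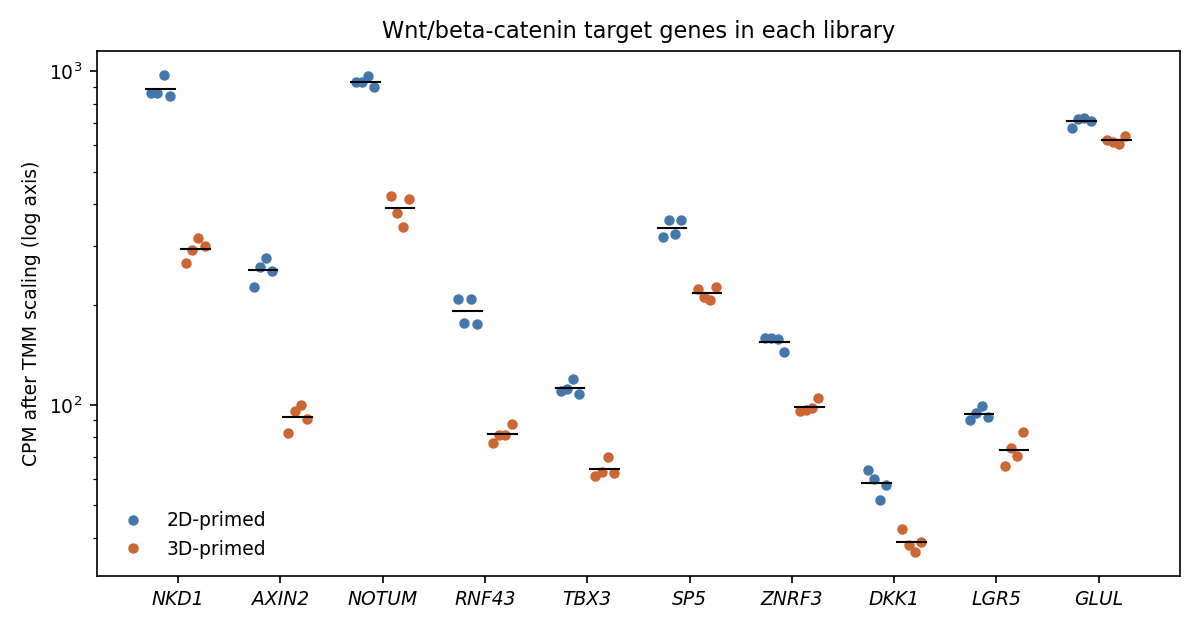
CPM after TMM scaling (log axis) of the 10 target genes in each library, with 4 2D-primed libraries in blue, 4 3D-primed libraries in orange and bars at the group means. Genes run from the largest fall, in NKD1, to the smallest, in GLUL, and in none do the groups overlap.

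Both intracellular feedback inhibitors, NKD1 and AXIN2, showed the largest falls. NKD1 (ENSG00000140807, chromosome 16, from 50548396 to 50649249 of GRCh38) encodes naked cuticle 1, which binds Dishevelled and dampens the signal. Its 2D-primed libraries held 860.2, 863, 978 and 845 CPM and its 3D-primed libraries 267, 292, 317 and 299 CPM. 2D-primed replicate 3 was the highest of all, and the lowest 2D-primed library was still well above every 3D-primed one. The means were 886 ± 61.4 and 294 ± 20.9 CPM, a log2FC of -1.59 (SE 0.0642, edgeR adjusted p = 4.1e-08), and 3.28% of all genes tested had a lower one. AXIN2 (ENSG00000168646, chromosome 17, from 65528563 to 65561648) encodes a scaffold of the destruction complex and is the customary readout of Wnt signalling. It was counted at 226.5, 259, 276 and 252.5 CPM in 2D-primed and at 82.6, 96.1, 99.97 and 90.6 CPM in 3D-primed libraries. Replicate 1 was the lowest and replicate 3 the highest within each group, without any overlap between the groups. AXIN2 thus went from 253 ± 20.5 to 92.3 ± 7.54 CPM, with a log2FC of -1.46 (SE 0.0727, edgeR adjusted p = 1.2e-07).

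Secreted inhibitors of the pathway fell by unequal amounts. NOTUM (ENSG00000185269, chromosome 17, from 81952507 to 81961840) encodes an esterase that removes the lipid from Wnt proteins and so inactivates them. It had 927, 932, 967 and 895 CPM in 2D-primed and 423, 375, 341 and 414 CPM in 3D-primed libraries. The 2D-primed libraries lay close together, and the 3D-primed libraries were more spread, in relation to their mean, at 388 ± 37.7 CPM against 930.3 ± 29.3 CPM. The log2FC of NOTUM was -1.26 (SE 0.0658, edgeR adjusted p = 1.6e-07). DKK1 (ENSG00000107984, chromosome 10, from 52314281 to 52318042), whose product blocks the LRP co-receptors, was the least abundant member in CPM. Its values were 64.0, 59.8, 52.0 and 57.4 CPM in 2D-primed and 42.5, 38.1, 36.3 and 38.8 CPM in 3D-primed libraries. 2D-primed replicate 3, which was the highest for NKD1 and AXIN2, was the lowest of its group for DKK1. The mean of DKK1 went from 58.3 ± 5.01 to 38.9 ± 2.59 CPM, 1.5-fold less in 3D-primed cells (log2FC -0.58, edgeR adjusted p = 3.3e-05).

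At the cell surface, RNF43 and ZNRF3 encode related membrane ubiquitin ligases that remove Frizzled receptors, and LGR5 encodes a receptor for R-spondins, which keep these ligases in check. RNF43 (ENSG00000108375, chromosome 17, from 58353676 to 58417595) had 207.8, 176, 207.9 and 175 CPM in 2D-primed and 76.7, 81.5, 81.3 and 87.8 CPM in 3D-primed libraries. 2D-primed replicates 1 and 3 stood above replicates 2 and 4, and all of them were far above the 3D-primed libraries, the highest of which was replicate 4. Its log2FC was -1.23 (SE 0.0706, edgeR adjusted p = 2.6e-07), from 192 ± 18.6 to 81.8 ± 4.56 CPM. ZNRF3 (ENSG00000183579, chromosome 22, from 28883572 to 29057488) fell less, with 159.3, 159.1, 157.5 and 143.8 CPM in 2D-primed and 95.63, 96.34, 97.97 and 104.9 CPM in 3D-primed libraries. 2D-primed replicate 4 was the lowest and 3D-primed replicate 4 the highest of their groups, and the groups were still well apart. ZNRF3 went from 155 ± 7.46 to 98.7 ± 4.25 CPM (log2FC -0.65, edgeR adjusted p = 1.2e-06). LGR5 (ENSG00000139292, chromosome 12, from 71439798 to 71586310) had 90.2, 94.8, 99.3 and 91.8 CPM in 2D-primed and 65.8, 74.1, 70.3 and 83.2 CPM in 3D-primed libraries. The groups came close here, with 3D-primed replicate 4 not far below the 2D-primed libraries, and the log2FC was -0.36 (SE 0.0675, edgeR adjusted p = 8.9e-04).

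The transcription factor genes SP5 and TBX3 lay in the middle of the range. SP5 (ENSG00000204335, chromosome 2, from 170715337 to 170718078), the gene whose promoter is shown above, encodes a zinc finger factor that acts on other Wnt targets. It was counted at 318.5, 359, 325 and 357 CPM in 2D-primed and at 222, 211, 207 and 226 CPM in 3D-primed libraries. The groups were clearly apart, with means of 339.9 ± 21.2 and 216 ± 9.21 CPM (log2FC -0.65, SE 0.0522, edgeR adjusted p = 2.3e-06). TBX3 (ENSG00000135111, chromosome 12, from 114670255 to 114684175), a T-box factor, had 109.8, 111.5, 119.9 and 108 CPM in 2D-primed and 61.19, 62.87, 70.04 and 62.54 CPM in 3D-primed libraries. Replicate 3 was the highest of either group for TBX3, as it was for NKD1 and AXIN2. The mean fell from 112 ± 5.27 to 64.2 ± 3.99 CPM, 1.75-fold (log2FC -0.81, edgeR adjusted p = 5.9e-07).

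GLUL (ENSG00000135821, chromosome 1, from 182378098 to 182392206) encodes glutamine synthetase, the enzyme of pericentral hepatocytes that joins ammonia to glutamate, and changed least of the members. Its libraries held 676, 722, 723 and 709 CPM in 2D-primed and 624, 614, 605 and 639.5 CPM in 3D-primed cells. The highest 3D-primed library was only a little below the lowest 2D-primed one, which was replicate 1. GLUL went from 708 ± 21.9 to 621 ± 14.8 CPM, a log2FC of -0.19 (SE 0.0372, edgeR adjusted p = 0.0012), and 34.6% of all genes tested had a lower one. Its counts are uncertain to the extent that reads could be split between GLUL and its processed pseudogenes. Exons of RNF43 and AXIN2 overlap those of genes on the same strand, which had 0 to 18 and 0 to 6 counts per library, and DKK1, LGR5, NKD1, NOTUM, RNF43 and TBX3 overlap genes on the opposite strand. The kit marks strand, and whether the counting used it is not given in the sources used here.

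**Figure D2:**
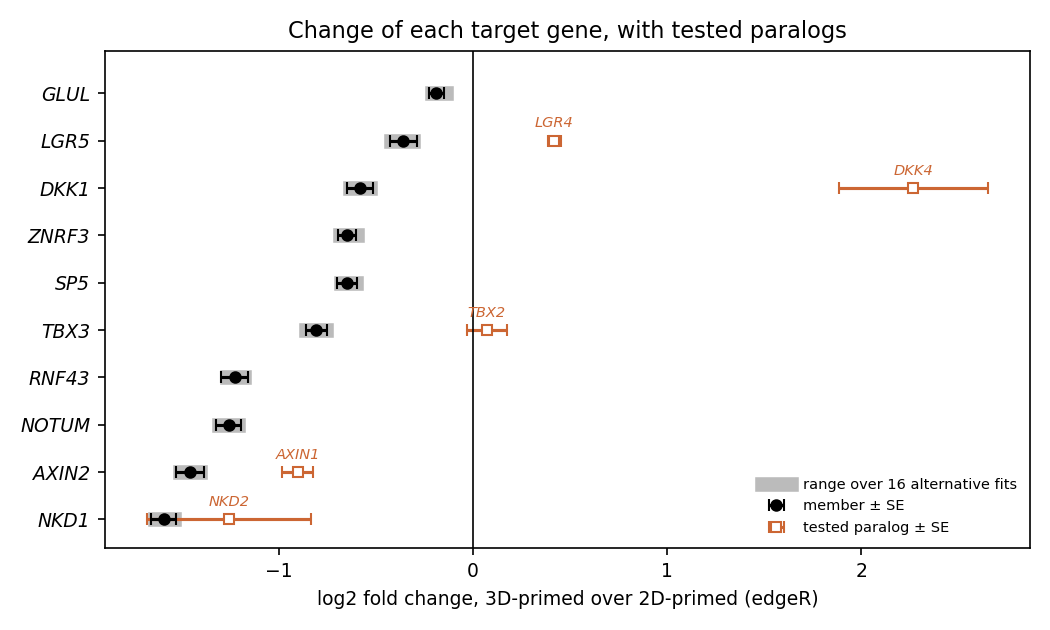
Log2FC of 3D-primed over 2D-primed cells in edgeR for each target gene (black, ± SE), with its range over 16 alternative fits (grey) and the paralogs that were tested (orange, ± SE). All members lie below 0 over their whole range, with black points from -1.59 for NKD1 to -0.19 for GLUL. LGR4 lies above 0, as does DKK4, which was tested on 3 to 29 counts per library.

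A comparison of genes within each library needs no scaling between libraries and was added after these values were seen. CTNNB1, the gene of beta-catenin itself, had 407, 399.5, 404 and 388 CPM in 2D-primed and 319.8, 334, 323 and 352 CPM in 3D-primed libraries (log2FC -0.27, SE 0.0404, edgeR adjusted p = 2.0e-04). Relative to the CTNNB1 count of the same library, 7 members stayed lower in 3D-primed cells without overlap, from NKD1 (by 1.33 on the log2 scale) and AXIN2 (by 1.19) to ZNRF3 and SP5 (by 0.38 each). For each of these 7 the exact permutation test gave p = 0.029, the smallest that 4 against 4 libraries allow, which is 0.036 adjusted over the 14 ratios computed. The ratio of DKK1 differed by -0.31 on average, with 3D-primed replicate 1 inside the 2D-primed range (exact permutation test, p = 0.057, adjusted p = 0.062). That of LGR5 averaged -2.09 in the 2D-primed and -2.18 in the 3D-primed group, with overlapping libraries (exact permutation test, p = 0.14 and adjusted p = 0.14). For GLUL the mean ratio was 0.82 in the 2D-primed and 0.90 in the 3D-primed group, the reverse of its direction in CPM (exact permutation test, p = 0.057, adjusted p = 0.062).

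**Figure D3:**
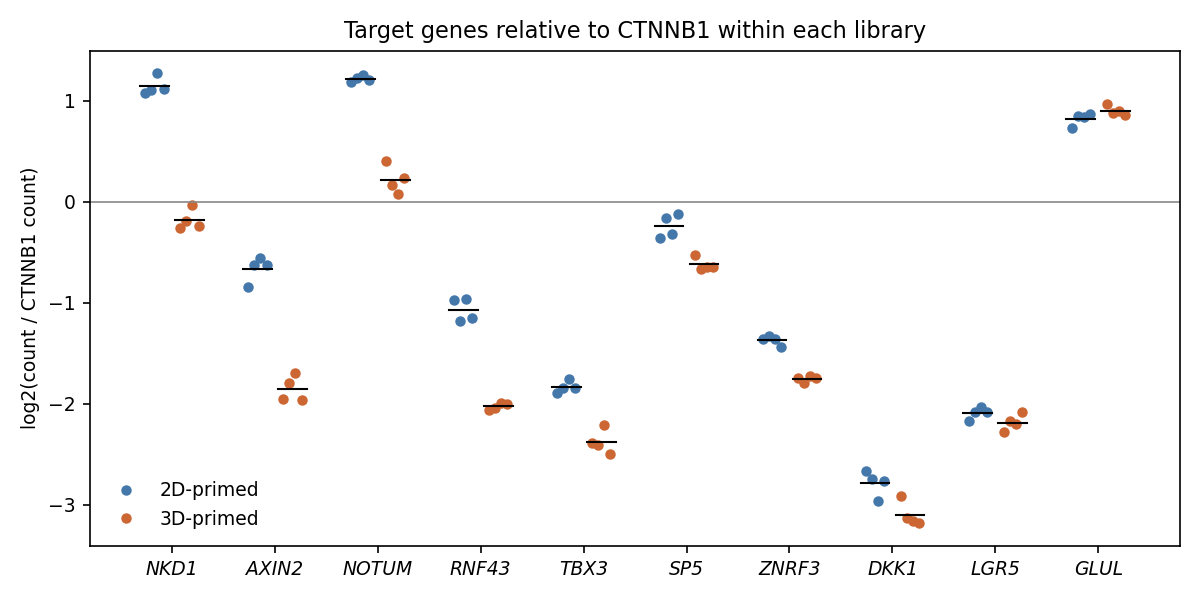
Log2 ratio of each target gene's count to the CTNNB1 count of the same library, with 4 2D-primed libraries in blue, 4 3D-primed libraries in orange and bars at the group means. NKD1, AXIN2, NOTUM and RNF43 drop by about 1 or more on the log2 scale, while the groups overlap for DKK1, LGR5 and GLUL.

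Members and their relatives differed in the size or the direction of the change. The log2 ratio of RNF43 to ZNRF3 went from 0.30 ± 0.117 in 2D-primed to -0.27 ± 0.0329 in 3D-primed libraries (exact permutation test, p = 0.029, adjusted p = 0.036). AXIN1, the paralog of AXIN2 in the destruction complex, also fell, from 153 ± 12.8 to 81.6 ± 8.28 CPM (log2FC -0.90, edgeR adjusted p = 4.4e-06). The log2 ratio of AXIN2 to AXIN1 was 0.55 lower in 3D-primed cells (exact permutation test, p = 0.029, adjusted p = 0.036). LGR4, which binds the same R-spondins as LGR5, rose from 138 ± 0.751 to 184 ± 3.18 CPM (log2FC 0.42, edgeR adjusted p = 1.6e-06). The log2 ratio of LGR5 to LGR4 was 0.78 lower in 3D-primed cells. Its groups could not overlap, as each gene was already apart in the opposite direction, so that its p-value is not given. NKD1 and GLUL were furthest apart among the members, as their log2 ratio was 1.40 lower in 3D-primed cells, from 0.32 to -1.08. This pair was picked for its difference, so that its p-value is not given. NKD2, the paralog of NKD1, was near the limit of detection with 3 to 20 counts per library (log2FC -1.26, edgeR adjusted p = 0.024), and without 2D-primed replicate 1, 3D-primed replicate 2 or 3D-primed replicate 4 its adjusted p rose to between 0.053 and 0.068. DKK4, an inhibitor like DKK1 and itself known as a Wnt target, had 3 to 4 counts in 2D-primed and 12 to 29 counts in 3D-primed libraries (log2FC 2.27, edgeR adjusted p = 4.3e-04). Of these paralogs, NKD2 passed the filter on low counts through the 2D-primed libraries alone and DKK4 through the 3D-primed libraries alone, so that their calls are not support for a direction. TBX2 was not called, with 12.3 ± 0.720 and 12.9 ± 1.94 CPM (edgeR adjusted p = 0.56). DKK3 and LGR6 had at most 2 and 4 counts in a library, and DKK2 none.

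The machinery of the pathway did not move as a block. Over 6 lists of ligands, release factors, receptors, extracellular inhibitors, the destruction complex and nuclear partners, 53 of 87 genes were tested, of which 24 were called lower in 3D-primed cells, 17 higher and 12 not at all, in the edgeR fit in which 31.6% of all genes were called lower and 32.4% higher. Of those higher, DKK4, APC2 and TLE2 passed the filter through 3D-primed libraries alone. Of 19 Wnt ligands only 4 passed the filter on low counts, and 6 had no count in any library. WNT3 was the most abundant and rose from 7.02 ± 0.248 to 11.01 ± 1.57 CPM (log2FC 0.65, edgeR adjusted p = 2.8e-04). WNT2B, with 8 to 37 counts, had a log2FC of -1.07 (edgeR adjusted p = 0.021), which lost its call without 2D-primed replicate 3 (adjusted p = 0.072) or 3D-primed replicate 1 (adjusted p = 0.054). WNT11 had a log2FC of -0.77 and was not called (edgeR adjusted p = 0.11). WLS, the carrier that brings Wnt proteins to the cell surface, had at most 1 count in a library, and among release factors and R-spondins only PORCN, which attaches the lipid to Wnt proteins, was tested (2.22 ± 0.246 and 2.10 ± 0.238 CPM, edgeR adjusted p = 0.65).

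Among receptors and co-receptors, 7 of 12 tested genes rose and 4 fell, where 32.4% of all genes tested rose and 31.6% fell. Of the co-receptors that DKK1 blocks, LRP6 was not called, at 70.3 ± 2.23 and 66.0 ± 3.65 CPM (log2FC -0.09, edgeR adjusted p = 0.11), and LRP5 went from 538 ± 19.5 to 316 ± 18.5 CPM (log2FC -0.77, edgeR adjusted p = 5.3e-07), and the Frizzled receptor gene FZD5 from 289.5 ± 13.0 to 183 ± 13.2 CPM (log2FC -0.67, edgeR adjusted p = 3.2e-06). Besides LGR4, those that rose were FZD1, FZD3, FZD4, FZD9, RYK and ROR1, named here after their values were seen. Of those that rose, FZD4 was the most abundant after LGR4, going from 102.5 ± 6.18 to 122 ± 6.26 CPM. FZD1, FZD9 and ROR1 had 19 to 66, 23 to 73 and 22 to 121 counts per library. Besides LRP5 and FZD5, FZD7 (log2FC -1.04, edgeR adjusted p = 6.1e-04) and FZD6 (log2FC -0.16, edgeR adjusted p = 0.048) fell. FZD3 and FZD6 had overlapping groups. The summed level of the receptor list was 1177.3 to 1235.4 CPM in 2D-primed and 936.3 to 983.2 CPM in 3D-primed libraries. Of the extracellular inhibitors 6 of 14 were tested, with 3 lower (KREMEN1, SFRP4 and TPBG) and 1 higher (DKK4), and KREMEN1, which acts with DKK1, had the smallest p, with 57.0 ± 2.83 and 27.8 ± 3.54 CPM (log2FC -1.04, edgeR adjusted p = 2.0e-06). SFRP4, which binds Wnt proteins, had a log2FC of -0.45 (edgeR adjusted p = 0.018), and without 2D-primed replicate 3 its adjusted p was 0.052.

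In the destruction complex and Dishevelled list all 16 genes were tested, with 9 lower and 4 higher in 3D-primed cells. Of all genes tested, 31.6% were lower and 32.4% higher. APC2, among those higher, passed the filter through 3D-primed libraries alone. Besides AXIN1, the casein kinase genes CSNK1E and CSNK1D had the smallest p, with log2FC values of -0.63 and -0.36 (edgeR adjusted p = 5.1e-06 and 6.8e-06). APC had a log2FC of -0.38 (edgeR adjusted p = 0.0013), whereas GSK3B, the kinase that marks beta-catenin, had 49.7 ± 2.25 and 46.5 ± 2.33 CPM (edgeR adjusted p = 0.10) and was called without 3D-primed replicate 3 only (adjusted p = 0.032). Of the DNA-binding partners of beta-catenin, TCF7L2 was the most abundant and fell from 45.3 ± 1.07 to 30.0 ± 2.68 CPM (log2FC -0.59, edgeR adjusted p = 1.1e-05). TCF7 and TCF7L1 were not called, at 21.3 ± 1.94 and 20.1 ± 2.09 CPM and at 2.22 ± 0.412 and 2.55 ± 0.475 CPM (edgeR adjusted p = 0.41 and 0.38), and LEF1 had 3 to 8 counts per library and was not tested. In this nuclear list 14 of 15 genes were tested, with 7 lower and 4 higher in 3D-primed cells, against 31.6% and 32.4% of all genes tested. TLE2, among those higher, passed the filter through 3D-primed libraries alone. The co-repressor gene TLE3 fell (log2FC -0.58, edgeR adjusted p = 7.5e-06), and the co-activator gene PYGO2 rose (log2FC 0.39, edgeR adjusted p = 9.8e-06). The co-activator gene BCL9 fell (log2FC -0.43, edgeR adjusted p = 1.3e-04) and CTNNBIP1 rose (log2FC 0.56, edgeR adjusted p = 1.1e-05), both named after their values were seen.

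**Figure D4:**
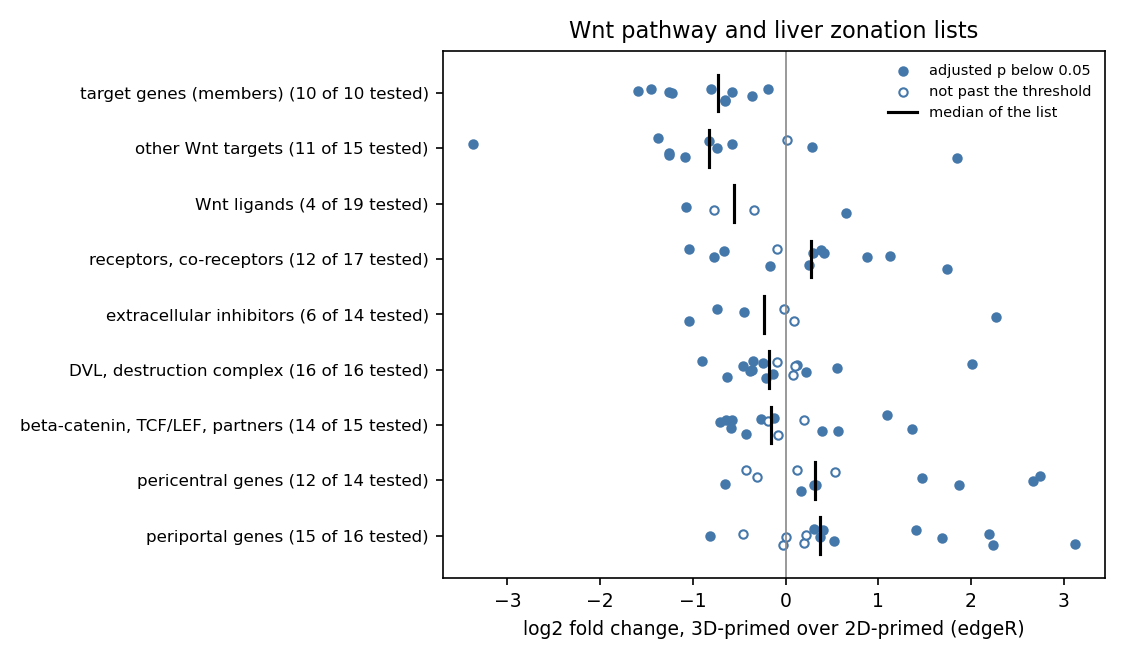
Log2FC of 3D-primed over 2D-primed cells in edgeR for every tested gene of the target genes, the other lists of the pathway except the release factors (1 tested gene) and the liver zonation lists, with filled points for genes past the threshold and bars at the list medians. The 10 members all lie left of 0, the receptors and the zonation lists have medians above 0, and the other lists drawn scatter on both sides.

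Of 15 other genes known as Wnt targets 11 were tested, with 8 lower and 2 higher in 3D-primed cells and a median log2FC of -0.83, where 31.6% of all genes tested were lower, 32.4% higher and the median was 0.013. NKD2 and MMP7 among those lower passed the filter through 2D-primed libraries alone, and SNAI2 among those higher through 3D-primed libraries alone. With 10 counts required in all 8 libraries, 6 of 8 tested genes were lower and 1 higher. CCND1, the gene of cyclin D1, fell from 370.3 ± 19.3 to 174 ± 8.28 CPM (log2FC -1.09, edgeR adjusted p = 7.7e-08). TNFRSF19, a receptor of the TNF family, had a log2FC of -1.38 (edgeR adjusted p = 4.0e-07), and the transcription factor gene SOX9 one of -0.74 (edgeR adjusted p = 2.3e-06). Those that rose, PPARD and SNAI2, were named after their values were seen and had log2FC values of 0.28 and 1.85, SNAI2 with 1 to 18 counts per library. MYC, likewise named afterwards, was the single one without a call, at 206 ± 6.79 and 208 ± 8.85 CPM (edgeR adjusted p = 0.74). Several of these genes, CCND1 and SOX9 among them, also respond to other pathways, whose part in the change was not tested.

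Genes that mark liver zones were described by the same counts, to be read against the 31.6% lower and 32.4% higher among all genes tested. Of 14 pericentral genes, which like GLUL mark the zone where Wnt signalling is high, 12 were tested, with 7 higher and 1 lower in 3D-primed cells and a median log2FC of 0.32. CYP1A2 and SLCO1B3 among those higher passed the filter through 3D-primed libraries alone, and with 10 counts required in all 8 libraries 5 of 8 tested genes were higher and 1 lower. CYP7A1, the rate-limiting enzyme of bile acid synthesis, rose from 2.23 ± 0.407 to 15.0 ± 0.860 CPM (log2FC 2.75, edgeR adjusted p = 5.8e-08), and RGN, regucalcin, from 18.8 ± 2.67 to 52.1 ± 2.38 CPM (log2FC 1.47, edgeR adjusted p = 3.3e-07). AHR, the aryl hydrocarbon receptor gene, was the one that fell (log2FC -0.65, edgeR adjusted p = 3.8e-05). Periportal genes, from the opposite zone, showed 9 higher and 1 lower among 15 tested of 16, with a median log2FC of 0.37. OTC and FBP1 likewise passed through 3D-primed libraries alone, and under the stricter filter 7 of 12 tested genes were higher and 1 lower. HAL, the histidine-degrading enzyme, rose from 12.2 ± 1.89 to 106 ± 25.7 CPM, 8.69-fold (edgeR adjusted p = 2.7e-07), TAT, tyrosine aminotransferase, 3.21-fold (edgeR adjusted p = 8.9e-07) and ARG1, arginase, 4.58-fold (edgeR adjusted p = 2.3e-05). A difference between the periportal and pericentral lists was not tested.

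Levels can be compared between genes only per length, and CPM was therefore also divided by the length in kilobases of the Ensembl canonical transcript in GENCODE. In 2D-primed cells NOTUM was the highest per kilobase, at 418.5 ± 13.2 CPM per kb, followed by SP5 with 166 ± 10.4 and GLUL with 93.7 ± 2.89 CPM per kb. AXIN2 (59.5 ± 4.81 CPM per kb) and NKD1 (52.0 ± 3.60 CPM per kb) came next and overlapped each other. RNF43 had 42.4 ± 4.11 and DKK1 32.3 ± 2.77 CPM per kb. TBX3, ZNRF3 and LGR5 were the lowest, at 20.5 to 23.7 CPM per kb on average, and each overlapped its neighbour in this order. In 3D-primed cells NOTUM, SP5 and GLUL kept their places with 175, 105.7 and 82.2 CPM per kb, and the other 7 genes lay between 13.6 and 21.7 CPM per kb. Of these AXIN2 and DKK1 overlapped, as did each gene and the next from RNF43 downwards. NKD1 dropped from the fifth to the seventh place, and DKK1 rose from the seventh to the fifth. These levels rest on the transcript chosen: over the union of all exons GLUL had 56.0 CPM per kb, and NKD1, at 51.1, came before AXIN2, at 48.8.

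The genes with the profile most like that of AXIN2 over the 8 libraries were found by the root mean square difference of log2 CPM, each gene centred on its own mean, among 8991 genes with a mean of 10 CPM or more. Nearest was ENSG00000276016, for which the annotation gave no symbol (0.038), followed by ZFP36L1 (0.059), which encodes an RNA-binding protein that shortens the life of mRNAs, the phospholipase C gene PLCD3 (0.060), the RNA-binding protein gene RBMS2 (0.063) and PPP1R13L (0.064), which encodes an inhibitor of p53. Their log2FC values ran from -1.57 to -1.42. That these lie close to that of AXIN2 follows from the choice, as the profile holds the difference between the groups. Among the members NKD1 was the most like AXIN2 (0.093, place 22), and RNF43 (0.18, place 172) and NOTUM (0.20, place 198) followed. No statement on shared control follows from this likeness.

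HepG2 cells in both groups expressed all 8 hepatocyte markers on a fixed list, whose summed level was 59416.2 to 65072.6 CPM in 2D-primed and 78193.3 to 88279.6 CPM in 3D-primed libraries, with 6 markers higher and 2 lower in 3D-primed cells. FGB, APOA2 and TTR had log2FC values of 1.55, 0.99 and 0.81. ALB, which held the largest part of this sum, went from 26390 ± 1397 to 44040 ± 3511 CPM (log2FC 0.74). TF went from 10030 ± 493 to 13880 ± 1017 CPM (log2FC 0.47), and both were named after their values were seen. Those lower were APOB (log2FC -0.25, edgeR adjusted p = 0.016) and SERPINA1 (log2FC -0.14, edgeR adjusted p = 0.011), each with overlapping groups. The gene counts in this paragraph are to be read against the 31.6% lower and 32.4% higher among all genes tested. Bile duct markers fell together with the target genes: KRT19, EPCAM and SOX9, all 3 tested of 5, were lower in 3D-primed cells, and their summed level was 736.8 to 828.4 CPM against 418.4 to 446.2 CPM. KRT19 had a log2FC of -1.67 (edgeR adjusted p = 8.0e-08) and EPCAM of -0.33 (edgeR adjusted p = 1.1e-04), while KRT7 and CFTR had at most 2 and 1 counts in a library. The part of these markers in the fall of the target genes was not tested, and SOX9 is also on the list of Wnt targets. Stellate cell markers summed to 40.5 to 48.7 CPM over both groups, with COL1A1 at 16 to 28 counts in 2D-primed and 0 to 3 in 3D-primed libraries, PDGFRB higher in 3D-primed cells (log2FC 0.62) and ACTA2 not called (edgeR adjusted p = 0.10). Endothelial markers summed to 4.16 to 7.72 CPM, with STAB2 at 0, CDH5 lower (log2FC -1.56), VWF at 20 to 57 counts and PECAM1 at 18 to 45 counts per library. Of the leukocyte markers PTPRC had at most 2 counts and CD163 and MARCO none, while CD68, a lysosomal protein gene, went from 72.7 to 34.4 CPM and CD14 from 1.65 to 2.83 CPM. Mitochondrially encoded genes took 1.40 to 1.81% of the counts in 2D-primed and 2.47 to 2.98% in 3D-primed libraries (exact permutation test, 2-sided, p = 0.029), and of 13 such mRNAs 12 rose, MT-ND3, MT-CO3 and MT-CYB by 0.96, 1.18 and 1.16 on the log2 scale. Their part in the fall of the target genes was not tested.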

How the data were processed

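Polyadenylated RNA of 8 HepG2 samples was sequenced in read pairs. The authors deposited estimated counts per gene, from Salmon v0.14.1 on the Ensembl release 98 human cDNA (GRCh38) and tximport v1.12.3, as whole numbers without scaling for depth. The tximport setting for transcript length is not given in the sources used here. Groups came from the sample titles. Symbols, positions and lengths came from GENCODE release 44 on GRCh38 by identifier without version, which matched 34977 of 38032 identifiers and 97.5% of counts. Replicates differed beyond counting noise, with a chi-square per degree of freedom of 6.34 to 17.4.

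The filter kept genes that reached 10 counts in 2 or more libraries, and groups were compared with TMM scaling and glmQLFTest of edgeR 4.0.16 in R 4.3.3, with Benjamini-Hochberg adjustment over all genes tested and a threshold of 0.05. The design and tests were checked on simulated data. A standard error is the log2 fold change divided by the square root of F. The alternatives were DESeq2 1.42.0, 3 other scalings, 3 other filters, leaving out each library and a replicate block. The members and lists, written from general knowledge, were chosen with earlier results of these data known. Named are the members, fixed pathway genes and paralogs, the 3 tested genes of each list with the smallest p, and the 5 genes most like AXIN2. The RT-qPCR, protein and drug experiments of the study are not analysed here.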

Additional observations from a re-analysis of the deposited data

Results flagged for a closer look

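In groups of 4 libraries, a library was marked when its gap to the nearest of the others took a larger part of the group's whole range than Dixon's 95% critical value. Chance marks about 1 in 20 groups, and 8 of the 126 groups examined were marked, all of them 2D-primed. Of the target genes, NKD1 was high in 2D-primed replicate 3 (977.7 CPM, the others 844.9 to 862.8 CPM), and ZNRF3 was low in 2D-primed replicate 4 (143.8 CPM, the others 157.5 to 159.3 CPM). AXIN1, the paralog of AXIN2, was low in 2D-primed replicate 1 (133.7 CPM, the others 157.4 to 160.9 CPM). Among the zonation and marker genes, ARG1 was high in 2D-primed replicate 4 (5.44 CPM, the others 3.54 to 3.66 CPM) and TTR low in replicate 1 (273.6 CPM, the others 306 to 308.2 CPM). CDH5 was low in 2D-primed replicate 2 (3.67 CPM, the others 5.04 to 5.13 CPM), VWF high in replicate 4 (1.56 CPM, the others 0.916 to 1.02 CPM) and MT-ND3 low in replicate 2 (247.5 CPM, the others 285.9 to 293.3 CPM). In each of these genes except VWF the 2D-primed and 3D-primed libraries did not overlap.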

How the results depend on the processing

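In all 16 alternative fits the 10 target genes remained called lower in 3D-primed cells, with log2 fold changes of -1.64 to -1.54 for NKD1, -1.51 to -1.41 for AXIN2, -0.42 to -0.31 for LGR5 and -0.21 to -0.14 for GLUL, whose largest adjusted p was 0.0078. Within libraries, relative to CTNNB1 and added after the data were seen, GLUL was 0.079 higher in 3D-primed cells, and LGR5 and DKK1 kept their direction without passing the threshold. The number of Wnt ligands called, 2 in the report, was 5 without a filter on low counts and 1 with 10 counts in all 8 libraries, as more or fewer ligands were then tested, and ran from 1 to 3 as each library was left out. For extracellular inhibitors, 4 in the report, it then ran from 2 (without 2D-primed replicate 3) to 4. TBX2, not called, had log2 fold changes of -0.023 (without 3D-primed replicate 4) to 0.137 (without 3D-primed replicate 3). Over the union of exons, levels in 2D-primed cells were 319 CPM per kb for NOTUM, 56.0 for GLUL, 48.8 for AXIN2, 30.3 for RNF43, 26.3 for DKK1, 18.8 for TBX3 and 18.0 for LGR5. Same-numbered libraries of both groups showed no sign of pairing, as their deviations from the group means correlated at -0.043 to 0.057 across genes. Differently numbered libraries correlated at -0.0825 to 0.11. This measure cannot exclude that same-numbered libraries were prepared together. With the replicate block, 8490 genes were called in place of 8916, all 10 members among them. Members held at least 860 counts in every library, whereas most Wnt ligands were below what this depth can compare.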
